A study of Laodelphax striatellus with 6 samples.

Results

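The insulin, TOR and AMPK growth-signalling transcripts of the small brown planthopper, Laodelphax striatellus, a sap-feeding pest of rice, were followed in insects given β-asarone, a phenylpropanoid of plants, and in control insects. They were chosen by name alone, as the rows of the expression table whose protein description matched insulin, phosphoinositide kinases, RAC kinases (Akt), FOXO, TOR and its partners, tuberin, hamartin, Rheb, the ragulator, AMPK, ribosomal protein S6 kinases or 14-3-3 proteins. This gave 50 of 59004 assembled genes. Poly(A) RNA of whole bodies labelled wild type was sequenced in 3 libraries of insects treated with β-asarone (asarone replicates 1, 2 and 3) and 3 control libraries (control replicates 1, 2 and 3). The labels do not state the dose, the exposure time, what the control insects received, their sex and stage or how many insects made up a library. Separate batches of insects for each library are likewise not stated, so a p-value here reflects library-to-library spread that could be purely technical. Values are in TPM, each gene's length-corrected share of its library, and the sequencing depth behind them is unknown.

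Insulin-like peptides bind receptor tyrosine kinases at the cell surface, and the signal passes through PI3-kinase and its lipid product to the kinase Akt, which keeps the transcription factor FOXO out of the nucleus and relieves the small GTPase Rheb from the hamartin-tuberin brake. Rheb, together with amino-acid signals that reach the lysosome through the ragulator, switches on the TOR complex, which drives protein synthesis through S6 kinase. AMPK, a sensor of low cellular energy, opposes TOR, and 14-3-3 proteins hold phosphorylated targets of these kinases. In the brown planthopper Nilaparvata lugens, insulin receptors acting through FOXO set whether wings grow long or short.

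The names covered the pathway unevenly. Of the 50 members, 15 were in the phosphoinositide class, 15 were parts of the TOR complexes, of the ragulator or of a TOR sensor, 5 were AMPK subunits, 5 were 14-3-3 proteins, 4 carried insulin in their name, 3 were hamartin or Rheb, 2 were S6 kinases and 1 was FOXO. No description matched Akt, an insulin receptor substrate, a catalytic PI3-kinase subunit or tuberin, and these are not analysed here. Most rows with a best hit in L. striatellus itself, 14710 of 15038, are described only as hypothetical or uncharacterized proteins, so a gene of this pathway with such a description was not found by the names. Several members were pieces of 1 assembled cluster, among them 4 rows described as mTOR (TRINITY_DN25544_c0). The best hit was a planthopper protein for 22 members, another insect for 7, another arthropod for 7 and an animal outside the arthropods for 14.

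The libraries differed among themselves. Control replicate 2 stood lowest, with a median-of-ratios size factor of 0.777 against 0.994 to 1.13 in the other 5 libraries. Asarone replicate 2 held 560 rows found in it only, against 100 to 228 in the others. The summed level of muscle markers was 1930 to 2947 TPM in asarone and 2014 to 2878 TPM in control libraries, and that of cuticle genes 6853 to 18469 TPM in asarone and 11568 to 17913 TPM in control libraries. Nervous-system markers summed to 91.9 to 116 TPM in asarone and 66.9 to 111 TPM in control libraries, and gut and fat-body markers to 118 to 132 TPM in asarone and 103 to 121 TPM in control libraries. Sperm and cilium markers summed to 18.8 to 30.8 TPM in asarone and 14.6 to 34.9 TPM in control libraries, and the yolk and eggshell row stood at 10.7 to 24.9 TPM in asarone and 7.80 to 31.2 TPM in control libraries. All 6 marker lists were present in every library, as whole bodies hold these tissues, and 0 of their genes passed the test described next.

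The comparison of β-asarone with control asked which genes respond to the compound. No growth-signalling transcript passed the threshold. Of the 50 members, 19 averaged 1 TPM or more across the 6 libraries and were tested in a limma fit over all 24816 rows that passed this filter, in which 1 row (0.00403%) reached a Benjamini-Hochberg adjusted p under 0.05. Among the 19 members, 0 reached it, with adjusted p-values of 0.980 to 0.995, and 0 had an unadjusted limma p under 0.05, against 3.47% of all tested rows. Differences are log2 changes of (TPM + 1), asarone minus control; 11 members were above 0 and 8 below, and their median of 0.05 stood beside a median of 0.08 over all tested rows. For 17 of the 19 members the 95% limma interval of the log2 change lay within -1 and 1, so a change beyond 2-fold on this scale lay outside it, and the same held for 64.4% of all tested rows.

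The peptide signal was abundant and even. Insulin-like peptide 1 (TRINITY_DN2237_c0_g2), the ligand, with its best hit in L. striatellus itself, was at 96.9, 96.9 and 94.9 TPM in asarone replicates 1, 2 and 3, against 99.4, 76.3 and 85.9 TPM in control replicates 1, 2 and 3. Its asarone values lay inside the range of the control values. It averaged 96.2 ± 1.17 TPM in asarone and 87.2 ± 11.6 TPM in control insects (SD, n = 3 each), a log2 change of 0.15 (SE 0.14, limma adjusted p = 0.980) with an interval of 0.876-fold to 1.40-fold. Its level stood above that of 95.7% of all tested rows.

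Receptors were listed at low values. A partial row for insulin receptor 1 of L. striatellus (TRINITY_DN22407_c0_g1) was at 0, 0.71 and 0 TPM in asarone libraries, against 1.37, 0 and 1.45 TPM in control libraries. With 3 of the 6 libraries listed at 0 and a mean of 0.588 TPM it was not tested. A row described as an insulin-like peptide receptor, with the sea star Patiria miniata as best hit (TRINITY_DN51580_c0_g1), was at 10.7 TPM in asarone replicate 2 and listed at 0 in the other 5 libraries, so its log2 change of 1.18 (SE 1.08, limma adjusted p = 0.980) came from that library alone. IGF2 mRNA-binding protein 1 (TRINITY_DN9497_c0_g1), an RNA-binding protein that entered through its name and is no part of the receptor cascade, was at 24.1, 22.8 and 21.7 TPM in asarone libraries, against 24.1, 16.8 and 19.9 TPM in control libraries. Its groups overlapped, and the log2 change was 0.18 (SE 0.16).

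**Figure D1:**
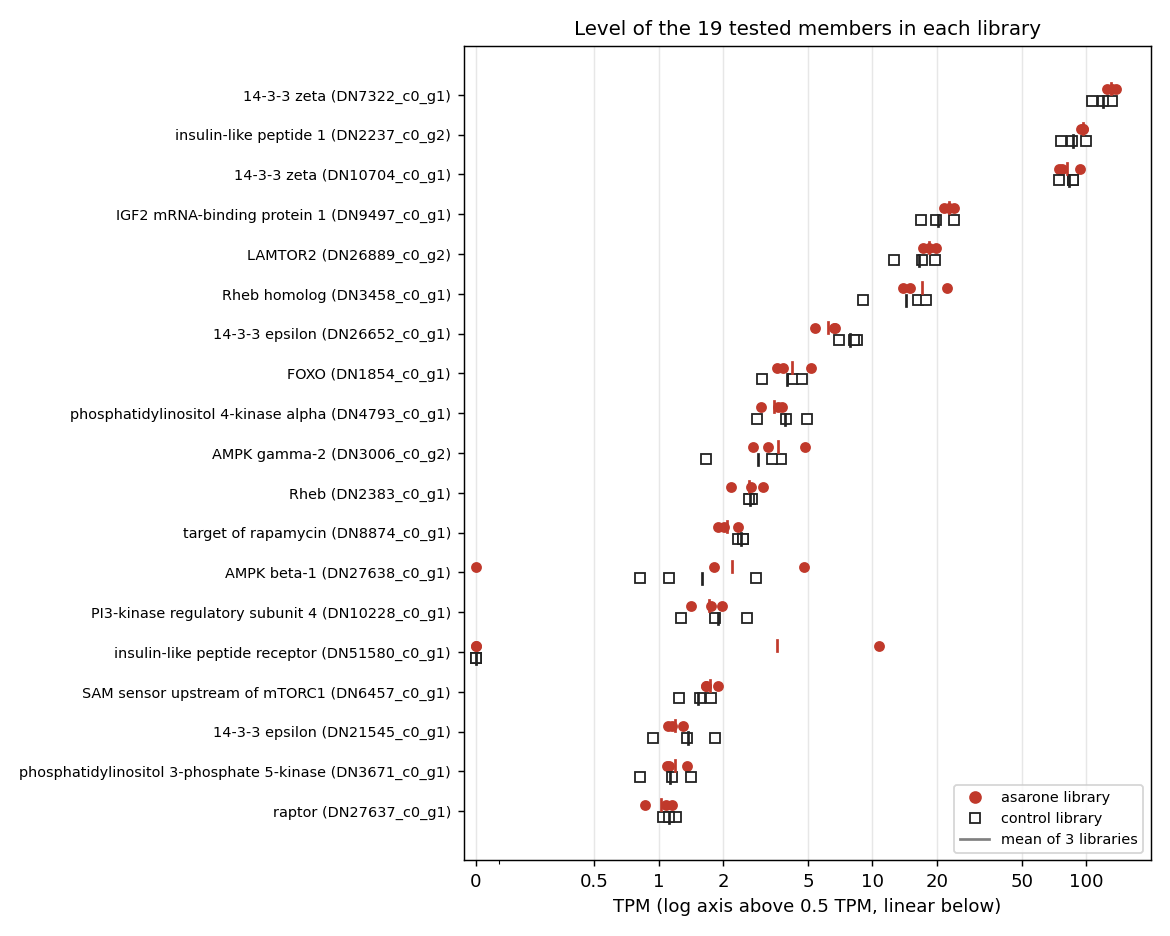
Level in TPM (horizontal axis, logarithmic above 0.5 TPM and linear below) of the 19 tested members in each of the 3 asarone libraries (filled circles) and the 3 control libraries (open squares), with bars at the group means. The groups overlap for every member except the 14-3-3 epsilon row TRINITY_DN26652_c0_g1, whose asarone values (5.41 to 6.66 TPM) lie below its control values (6.94 to 8.43 TPM).

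The tested lipid kinases stood at 0.82 to 4.93 TPM, with overlapping groups. Of the 15 members of the phosphoinositide class, 3 were tested, 1 above 0 and 2 below. PI3-kinase regulatory subunit 4 (TRINITY_DN10228_c0_g1), the Vps15 partner of the PI3-kinase that serves autophagy and endosomes, was at 1.75, 1.42 and 1.98 TPM in asarone libraries, against 2.58, 1.27 and 1.84 TPM in control libraries. Phosphatidylinositol 4-kinase alpha (TRINITY_DN4793_c0_g1), which supplies the membrane lipid that later kinases phosphorylate, was at 3.02, 3.77 and 3.62 TPM in asarone libraries, against 4.93, 2.88 and 3.93 TPM in control libraries (log2 change -0.12, SE 0.20). The control values spanned all the asarone values of both genes. A putative 1-phosphatidylinositol 3-phosphate 5-kinase (TRINITY_DN3671_c0_g1), which makes an endosomal lipid, was at 1.35, 1.12 and 1.09 TPM in asarone libraries, against 1.41, 0.82 and 1.15 TPM in control libraries. The regulatory subunit alpha of PI3-kinase (TRINITY_DN28954_c0_g1), the adaptor that couples the receptor to lipid signalling, was under the filter, at 1.19, 0.76 and 0.63 TPM in asarone libraries, against 0.46, 0.31 and 0.91 TPM in control libraries. This untested row did not separate the groups.

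FOXO (TRINITY_DN1854_c0_g1), the transcription factor held back by insulin, was at 5.16, 3.81 and 3.58 TPM in asarone libraries, against 4.26, 3.05 and 4.70 TPM in control libraries. The groups were interleaved, with means of 4.18 ± 0.854 TPM in asarone and 4.0 ± 0.854 TPM in control insects (SD, n = 3 each) and a log2 change of 0.05 (SE 0.21, limma adjusted p = 0.984). The interval of this change, 0.734-fold to 1.47-fold, describes the transcript only, since FOXO is controlled by its place in the cell.

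Rheb, the direct activator of TOR, was found in a pair of rows. The planthopper row (TRINITY_DN3458_c0_g1) was at 22.4, 15.0 and 13.9 TPM in asarone libraries, against 16.4, 9.07 and 17.7 TPM in control libraries (log2 change 0.25, SE 0.30). Its lowest value was in control replicate 2, and without that library the log2 change was -0.03. The other row, with the sea anemone Exaiptasia diaphana as best hit (TRINITY_DN2383_c0_g1), was at 2.18, 3.08 and 2.71 TPM in asarone libraries, against 2.66, 2.74 and 2.65 TPM in control libraries. Hamartin, one partner of the complex that restrains Rheb, was an untested row with the brachiopod Lingula anatina as best hit (TRINITY_DN33091_c0_g1), at 0.36, 0.41 and 0.40 TPM in asarone libraries, against 0.52, 0.53 and 0.67 TPM in control libraries. All its asarone values lay below the control values, as they did for 5.01% of all rows with a mean under 1 TPM and for 12.3% of those with a best hit outside planthoppers.

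The kinase TOR itself (TRINITY_DN8874_c0_g1, target of rapamycin of the white-backed planthopper Sogatella furcifera as best hit) was at 1.9, 2.03 and 2.36 TPM in asarone libraries, against 2.34, 2.47 and 2.47 TPM in control libraries. Asarone replicate 3 exceeded control replicate 1, so the groups overlapped, and the log2 change of -0.15 (SE 0.15, limma adjusted p = 0.980) had an interval of 0.699-fold to 1.16-fold. Raptor, the scaffold that presents substrates to TOR, was split over 4 rows, of which 1 was tested (TRINITY_DN27637_c0_g1), at 1.08, 0.86 and 1.15 TPM in asarone libraries, against 1.20, 1.05 and 1.12 TPM in control libraries. With a mean of 1.08 TPM it was the member just inside the filter on low values, and a gamma subunit of AMPK (TRINITY_DN47441_c0_g1) with a mean of 0.950 TPM was the one just outside. LAMTOR2 (TRINITY_DN26889_c0_g2), a ragulator subunit, was at 19.8, 18.3 and 17.3 TPM in asarone libraries, against 19.7, 12.6 and 17.1 TPM in control libraries (log2 change 0.18, SE 0.19). The S-adenosylmethionine sensor upstream of mTORC1 (TRINITY_DN6457_c0_g1), which restrains TOR when methionine is short, was at 1.66, 1.67 and 1.9 TPM in asarone libraries, against 1.76, 1.24 and 1.56 TPM in control libraries. Both had their lowest value in control replicate 2. The other 11 rows of this class, 6 of mTOR, 3 of raptor and 2 of rictor, the scaffold of the second TOR complex, had means of 0.133 to 0.785 TPM, and none separated the groups.

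S6 kinase, the TOR substrate that promotes translation, was seen under the filter only. The row with Trichoplax as best hit (TRINITY_DN23278_c0_g1) was at 0.79, 0.61 and 0.70 TPM in asarone libraries, against 0.85, 0.97 and 1.14 TPM in control libraries, so that all asarone values lay below the control values, as in hamartin and in 12.3% of all rows of this level with a best hit outside planthoppers. The planthopper row, described as ribosomal protein S6 kinase 2 beta (TRINITY_DN9719_c0_g1), was at 1.80 TPM in asarone replicate 1 and 1.70 TPM in control replicate 3 and listed at 0 in the other 4 libraries.

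AMPK was represented by all its kinds of subunit, at unequal reliability. The gamma subunit that binds adenine nucleotides (TRINITY_DN3006_c0_g2) was at 4.86, 2.75 and 3.25 TPM in asarone libraries, against 3.72, 1.66 and 3.39 TPM in control libraries (log2 change 0.25, SE 0.29, limma adjusted p = 0.980). The lowest value was again in control replicate 2, and without it the log2 change was -0.0048. The beta subunit, a scaffold (TRINITY_DN27638_c0_g1), was at 4.76, 0 and 1.82 TPM in asarone libraries, against 2.84, 0.82 and 1.12 TPM in control libraries. It had both its highest and its lowest value in asarone libraries, and its interval of 0.342-fold to 3.11-fold leaves a large change in either direction possible. The catalytic alpha subunit was an untested row with the sea squirt Phallusia mammillata as best hit (TRINITY_DN37845_c0_g1), at 0.36, 0.40 and 0.53 TPM in asarone libraries, against 0.51, 0.62 and 0.71 TPM in control libraries. An untested gamma-1 row with the bee Eufriesea mexicana as best hit (TRINITY_DN14397_c0_g1) was at 0.68, 0.46 and 0.55 TPM in asarone libraries, against 0.42, 0.27 and 0.41 TPM in control libraries. This was the 1 member of the 50 whose asarone values all exceeded its control values, which 2.93% of all rows under 1 TPM did, and 1.4% of those with a best hit outside planthoppers.

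The 14-3-3 adaptors ranged widely in level, and 1 of the zeta rows was the most abundant member. This row, TRINITY_DN7322_c0_g1, was at 137, 125 and 131 TPM in asarone libraries, against 132, 107 and 120 TPM in control libraries (log2 change 0.14, SE 0.13). The other zeta row, TRINITY_DN10704_c0_g1, was at 74.5, 93.2 and 77.3 TPM in asarone libraries, against 86.9, 87.2 and 74.9 TPM in control libraries (log2 change -0.03, SE 0.15). The groups of both rows overlapped, with intervals of 0.879-fold to 1.38-fold and 0.768-fold to 1.26-fold. Both rows carry the same description, so they may share reads, and the ratio of TRINITY_DN7322_c0_g1 to TRINITY_DN10704_c0_g1 was 1.63 ± 0.261 in asarone and 1.45 ± 0.197 in control libraries (SD, n = 3 each).

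The epsilon row TRINITY_DN26652_c0_g1, with the horseshoe crab Limulus polyphemus as best hit, was at 5.41, 6.66 and 6.6 TPM in asarone libraries, against 6.94, 8.43 and 8.17 TPM in control libraries. Its asarone values all lay below its control values, the only such case among the 19 tested members, while groups that did not overlap made up 8.66% of all tested rows, 4.14% lower and 4.53% higher in asarone. Among tested rows at 5 TPM or more with a best hit outside planthoppers, as here, 11.8% lay lower in this way. After median-of-ratios scaling its groups overlapped, as did those of every other tested member. This epsilon row had the smallest unadjusted p of the members, 0.103 in limma (log2 change -0.29, SE 0.15, limma adjusted p = 0.980). A second epsilon row (TRINITY_DN21545_c0_g1, the tubeworm Lamellibrachia satsuma as best hit) was at 1.16, 1.11 and 1.3 TPM in asarone libraries, against 0.94, 1.35 and 1.84 TPM in control libraries, with overlap. The last epsilon row (TRINITY_DN49705_c0_g1, an amphipod as best hit) was at 2.43 TPM in asarone replicate 2 and 0.42 TPM in asarone replicate 1 and listed at 0 in the other 4 libraries.

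**Figure D2:**
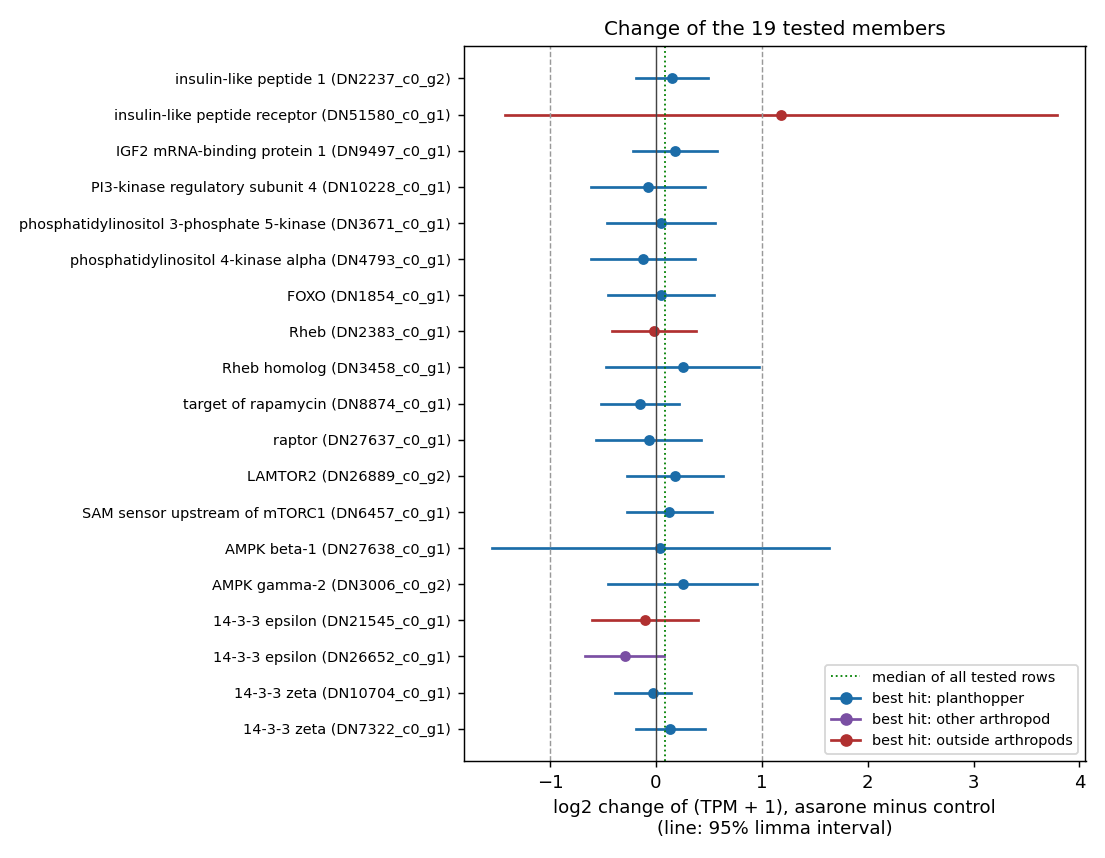
Log2 change of (TPM + 1), asarone minus control (points), with its 95% limma interval (lines), for the 19 tested members, coloured by the species group of the best hit; dashed lines mark -1 and 1 and the dotted line the median of all tested rows, 0.08. Every interval includes 0, and only those of the sea-star-like receptor row and of AMPK beta-1 reach beyond -1 or 1.

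The spread between libraries of a group was smaller at the median member than at the median row of the same broad level class. The median within-group SD of log2(TPM + 1) was 0.149 for the 7 members at 5 TPM or more, beside 0.271 for all tested rows of that level, and 0.218 for the 12 members between 1 and 5 TPM, beside 0.340. These medians describe the members and were not tested. Levels within a class were not matched, and the upper class holds members such as 14-3-3 zeta TRINITY_DN7322_c0_g1, above 96.3% of all tested rows in level.

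A shared library pattern ran through most of the planthopper rows. Control replicate 2 held the lowest of the 6 values for 11 of the 15 tested members with a planthopper best hit, and for 46.6% of all tested rows. The median deviation of these 15 members from their own mean was -0.26 in control replicate 2, beside -0.27 for all tested rows, and between -0.02 and 0.13 in the other 5 libraries. Without control replicate 2 the members' median log2 change was -0.03, beside -0.03 for all tested rows, and 7 members were above 0 and 12 below. After median-of-ratios scaling the split was 8 above and 11 below, and after quantile normalization it was also 8 and 11. The members' direction thus depended on the scaling. Their median was -0.013 and -0.025 after these scalings, beside 0.005 and 0.008 for all tested rows. In the main fit these medians were 0.05 and 0.08, so all rows moved down as well. Neither scaling nor the loss of any 1 library brought a member past the threshold.

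**Figure D3:**
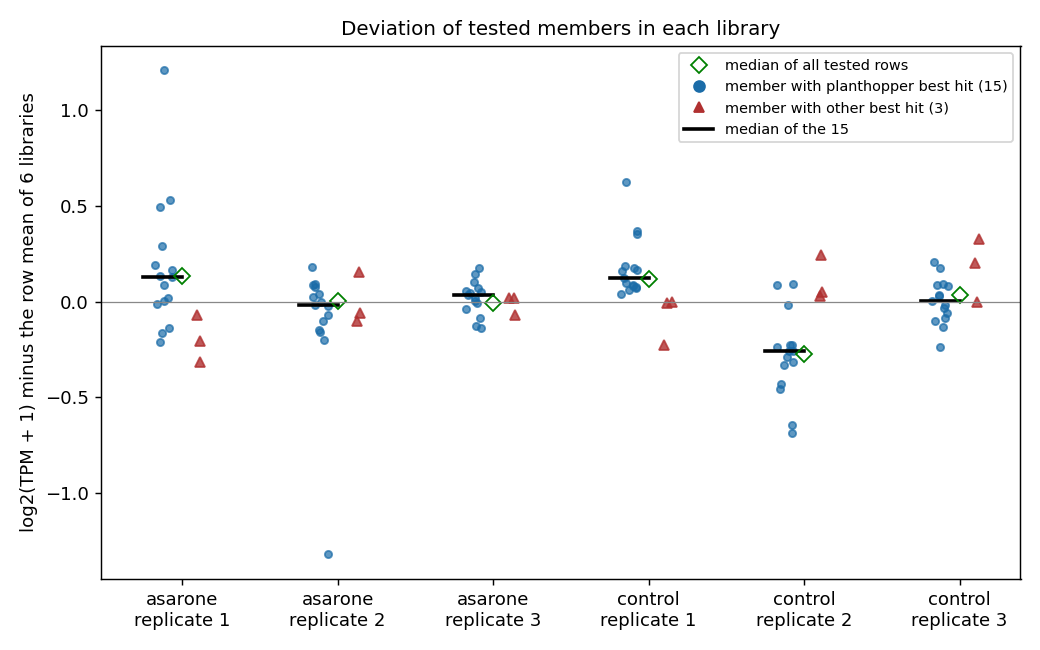
Deviation of log2(TPM + 1) from the row's mean over the 6 libraries (vertical axis) in each library, for the 15 tested members with a planthopper best hit (circles, bar at their median) and 3 of the 4 with another best hit (triangles; the row listed in asarone replicate 2 only is left out), with the median of all tested rows (diamonds). Most planthopper rows lie low in control replicate 2, with a median of -0.26, where the 3 other rows lie at or above 0. Target of rapamycin (2.47 TPM) and the 14-3-3 zeta row TRINITY_DN10704_c0_g1 (87.2 TPM) lie above their own means there.

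The members without a planthopper best hit followed another pattern. Of the 28, 20 had a lower mean in asarone than in control libraries and 8 a higher one. Over the whole table, rows with a best hit in another species also leaned this way, with 72.6% lower between 1 and 5 TPM and 68.3% lower between 0.2 and 1 TPM, against 31.9% and 46.6% of the rows with a planthopper best hit. Leaving out the receptor row listed in asarone replicate 2 only, these members summed to 17.0, 22.5 and 18.1 TPM in asarone libraries, against 19.5, 22.9 and 23.0 TPM in control libraries. Asarone replicate 2 exceeded control replicate 1, so the sums overlapped. Of the 24 such members under 1 TPM, 3 had all asarone values below the control values, beside 12.3% of all rows of that level and kind. They were hamartin, S6 kinase beta-1 and a 1-phosphatidylinositol 3-phosphate 5-kinase with a spider as best hit (TRINITY_DN7790_c0_g2, 0.54, 0.58 and 0.52 TPM in asarone libraries, against 0.69, 0.76 and 0.66 TPM in control libraries). The organism that these transcripts came from is not given, and its part in the result was not tested.

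**Figure D4:**
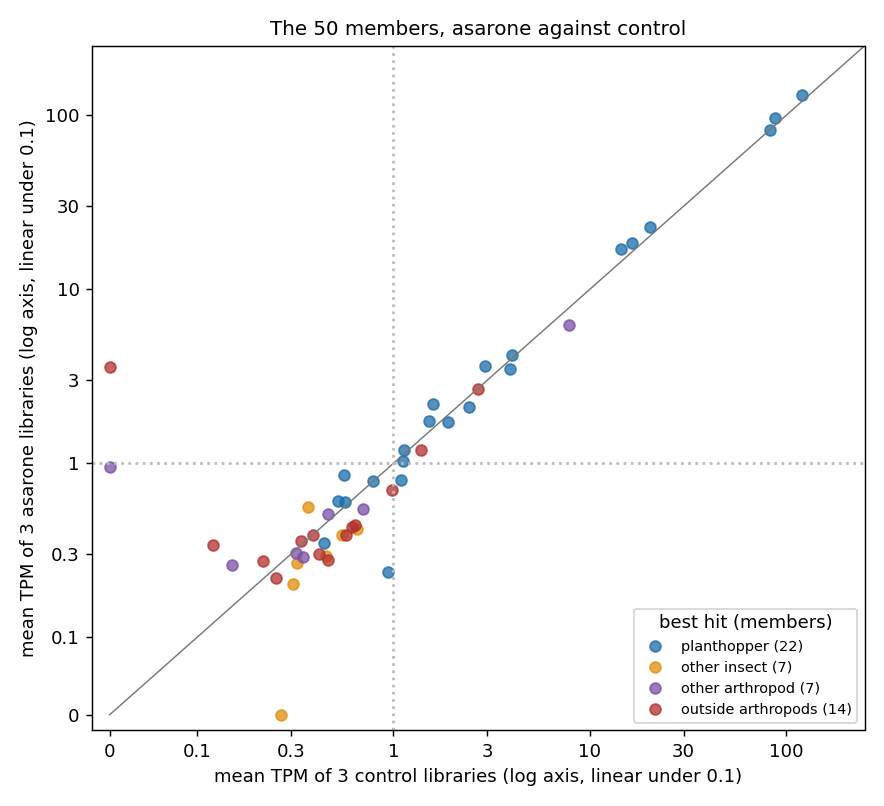
Mean TPM of the 3 asarone libraries (vertical axis) against mean TPM of the 3 control libraries (horizontal axis) for the 50 members, both axes logarithmic above 0.1 TPM and linear below, with the line of equality and dotted lines at 1 TPM. Members with a planthopper best hit reach 125 TPM, while those with other best hits lie mostly under 1 TPM and more often below the line, 20 of 28.

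Genes that act beside the members were taken from 8 lists of names, which held 52 rows, 22 of them tested. None of the 22 passed the threshold (limma adjusted p-values of 0.980 to 0.995, 0 with an unadjusted p under 0.05), 12 were above 0 and 10 below, and their median log2 change was 0.02 beside 0.08 for all tested rows. Control replicate 2 was the lowest library for 14 of the 22, and without it 4 of the 22 were above 0 and 18 below. The split was 9 above and 13 below after either other scaling. The 30 untested rows mostly had a best hit outside planthoppers. Among them, 5 had all asarone values below the control values and 0 the reverse, and none of the 5 had a planthopper best hit. Over all rows under 1 TPM these shares were 5.01% and 2.93%, and over those with a best hit outside planthoppers 12.3% and 1.4%.

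On the insulin side, the adaptor growth factor receptor-bound protein 2 (TRINITY_DN2431_c0_g1) was at 9.32, 6.74 and 6.21 TPM in asarone libraries, against 7.56, 3.27 and 6.93 TPM in control libraries (log2 change 0.33, SE 0.31). Myotubularin-related protein 14 (TRINITY_DN2663_c0_g1), of a family of phosphoinositide phosphatases, was at 8.11, 7.34 and 7.69 TPM in asarone libraries, against 8.25, 7.11 and 7.40 TPM in control libraries. TBC1 domain family member 1 (TRINITY_DN5307_c0_g1), a phosphorylation target of Akt and AMPK in mammals, was at 2.71, 1.3 and 1.13 TPM in asarone libraries, against 1.70, 0.93 and 1.67 TPM in control libraries. The groups of all 3 genes overlapped.

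Among TOR partners and amino-acid sensors, TELO2-interacting protein 2 (TRINITY_DN28777_c0_g1), which helps assemble TOR-type kinases, was at 2.71, 2.31 and 2.33 TPM in asarone libraries, against 3.11, 1.37 and 2.49 TPM in control libraries. The KICSTOR protein ITFG2 (TRINITY_DN4018_c0_g1) was at 7.82, 6.82 and 6.45 TPM in asarone libraries, against 8.58, 5.84 and 7.05 TPM in control libraries. Ras-related GTP-binding protein C (TRINITY_DN9973_c0_g1), the Rag GTPase that recruits TOR to the lysosome, was at 2.38, 2.11 and 2.24 TPM in asarone libraries, against 3.11, 0.92 and 1.69 TPM in control libraries. For all 3 genes the control values spanned the asarone values. Of the 5 tested amino-acid sensing genes, 2 were above 0 and 3 below. The split was 1 and 4 after either other scaling, 0 and 5 without control replicate 2 and 4 and 1 without control replicate 1.

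Among the outputs of TOR in translation, programmed cell death protein 4 (TRINITY_DN1992_c0_g1), a translation repressor that S6 kinase removes in mammals, was at 20.9, 18.2 and 17.6 TPM in asarone libraries, against 21.8, 11.3 and 20.4 TPM in control libraries. The cap-binding protein eIF4E type 2 (TRINITY_DN5118_c0_g1) entered through its name, and control of it by TOR was not tested. It was at 14.9, 15.1 and 12.9 TPM in asarone libraries, against 16.7, 10.2 and 13.2 TPM in control libraries. In both genes control replicate 1 was highest and control replicate 2 lowest.

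The list for AMPK activators and targets was drawn by name. It took in kinases described as SNF-related or ULK3, names that do not make them activators or targets of AMPK. All 4 tested rows of this list had a log2 change below 0, with a median of -0.06, also under both other scalings. Without control replicate 1, 3 of the 4 were above 0. CREB-regulated transcription coactivator 1 (TRINITY_DN17787_c0_g1), a coactivator kept in the cytoplasm by AMPK-related kinases, was at 2.77, 0 and 0 TPM in asarone libraries, against 3.71, 0 and 3.98 TPM in control libraries. A second row of the same description (TRINITY_DN17787_c1_g4), untested, was at 1.08, 1.55 and 0 TPM in asarone libraries, against 0, 0.39 and 0 TPM in control libraries. Its mean was higher in asarone, the opposite direction, and with rows of 1 description summed the log2 change was -0.47, against -0.88 for the tested row alone. A kinase described as SNF-related (TRINITY_DN8256_c0_g1) was at 5.22, 2.51 and 4.24 TPM in asarone libraries, against 6.72, 2.84 and 3.50 TPM in control libraries. None of these rows separated the groups.

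Of the phosphatase PP2A, which reverses many of these phosphorylations, 1 of 3 tested rows had all asarone values below the control values, as did 4.14% of all tested rows and 18.8% of those between 1 and 5 TPM with a best hit outside planthoppers. It was a regulatory subunit B row with the starfish Acanthaster planci as best hit (TRINITY_DN38545_c0_g1), at 1.18, 1.16 and 1.10 TPM in asarone libraries, against 1.48, 1.40 and 1.82 TPM in control libraries (log2 change -0.25, SE 0.17, limma adjusted p = 0.980). Of the 3 untested PP2A rows, 2 lay lower in the same way, beside 12.3% of all rows under 1 TPM with a best hit outside planthoppers. They were a catalytic subunit beta row with the coral Acropora digitifera as best hit (TRINITY_DN17140_c0_g1), at 0.58, 0.59 and 0.62 TPM in asarone libraries, against 0.91, 0.85 and 1.16 TPM in control libraries, and an activator row with a scorpion as best hit (TRINITY_DN36856_c0_g1), at 0.55, 0.76 and 0.73 TPM in asarone libraries, against 0.92, 1.29 and 1.05 TPM in control libraries. The planthopper row for a B″ gamma subunit (TRINITY_DN3175_c0_g4) was at 7.47, 6.32 and 7.35 TPM in asarone libraries, against 7.53, 5.21 and 5.44 TPM in control libraries, with overlap.

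The list for growth-related transcription factors held no row for Myc itself, and it took in proteins named after such factors. Its 3 tested rows had a log2 change above 0, and 2 of the 3 did after median-of-ratios scaling, after quantile normalization or without control replicate 2. Of these, c-Myc-binding protein (TRINITY_DN5978_c0_g1) was at 14.5, 9.34 and 9.53 TPM in asarone libraries, against 19.2, 7.24 and 5.68 TPM in control libraries. Another was sterol regulatory element-binding protein cleavage-activating protein (TRINITY_DN3357_c0_g1, log2 change 0.03, SE 0.23). Sterol regulatory element-binding protein 1 (TRINITY_DN7920_c0_g1), an activator of lipid synthesis genes, was at 1.27, 1.25 and 1.51 TPM in asarone libraries, against 1.52, 0.78 and 1.17 TPM in control libraries. The groups of all 3 rows overlapped.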

How the data were processed

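Whole bodies gave poly(A) libraries that keep strand, per the labels' protocols. Named without roles, per the submitters' processing notes, were StringTie 1.3.4d, DESeq2, cutadapt 1.9, edgeR and HISAT2 2.0.4. Neither the genome build nor the tool behind the values is given in the sources used here. The authors deposited 1 table named for FPKM, but all library totals are equal within rounding, at 999999.3 to 1000002.3, so the deposited values were read as TPM, and the test planned for either unit was applied to TPM. Depth cannot be read from TPM, so counting error has no interval here, and rows of one gene or family can share reads. The authors' deposited group means were not used. Rows averaging 1 TPM or more were tested with limma 3.58.1 in R 4.3.3 (trend and robust, two-sided) on log2(TPM + 1), which understates the change of low genes, with Benjamini-Hochberg adjustment over all 24816 rows and a threshold of 0.05. Samples were grouped by title. The procedure was tested on simulated data with independent noise in each row and no shift of a whole library. Changes were added there only to rows above about 5 TPM, so that check does not cover the members of lower level. Members, lists and alternatives were chosen with earlier results of these data known, and no list was tested as a set. Named genes were the tested members, core components under the filter, members whose groups did not overlap and, from each pathway list, its most abundant row and the row of smallest p; PI3-kinase regulatory subunit alpha, hamartin, the S6 kinases, AMPK alpha, the single-library rows, the second CREB-coactivator row and the untested PP2A rows were added after their values were seen, and 1 member is not reported here by name. In 2 pathway lists, names matched by accident (elongator proteins, an opsin) were removed once the descriptions were seen. Alternatives covered pseudocount, filter, scaling, moderation, replicate block, left-out libraries, single-library rows (from 2 TPM in 1 library, with no other above 5% of that value), summed descriptions and planthopper hits only. Figures were drawn with matplotlib.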

Additional observations from a re-analysis of the deposited data

How the results depend on the processing

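The members and the pathway genes past the threshold numbered 0 under every alternative run, and their adjusted p missed the threshold in each, which does not show that they did not differ. The members' median log2 change of 0.05 ranged from -0.03 to 0.14 when libraries were left out and so changed sign. The 1 gene past the threshold over all rows became 0 without the filter, with a filter at 5 TPM, with a pseudocount of 0.1, under median-of-ratios scaling, under quantile normalization, with the replicate block and without each single library (0 to 0). The members with groups that do not overlap, 1 of 19 beside 8.66% of all tested rows, became 5 of 50 with no filter (8.25% of all rows), 0 with median-of-ratios scaling (8.93%) and 4 with quantile normalization (8.86%). Members with a planthopper best hit gave 0. They were 1 to 8 when libraries were left out, where all rows also separated more often: 8 without control replicate 1 (27.0% of all rows), and 2 without control replicate 2 (16.2%), without asarone replicate 3 (16.9%) or without both second replicates (25.8%). The deviations of same-numbered libraries correlated at 0.157, 0.0814 and -0.035, and those of differently numbered libraries at -0.139 to 0.0613. These values do not settle whether replicate numbers pair the libraries. With the replicate block, 1039 rows had an unadjusted limma p under 0.05, against 860 without it, and no member's call changed.

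Small log2 changes turned sign under some settings, in genes that passed the threshold in no setting. FOXO became -0.032 with median-of-ratios scaling and -0.045 with quantile normalization, the phosphatidylinositol 3-phosphate 5-kinase -0.0036 and -0.025, myotubularin-related protein 14 -0.074 and -0.074, and AMPK beta-1 -0.013 and -0.025. AMPK beta-1 also became -0.61 with a pseudocount of 0.1 and -0.076 with one of 0.5. On leaving out libraries the log2 change ranged from -0.24 to 0.092 for PI3-kinase regulatory subunit 4, -0.060 to 0.14 for the phosphatidylinositol 3-phosphate 5-kinase, -0.33 to 0.028 for phosphatidylinositol 4-kinase alpha, -0.092 to 0.15 for FOXO, -0.10 to 0.079 and -0.027 to 0.42 for the sea-anemone-like and planthopper rows of Rheb, -0.55 to 0.71 for AMPK beta-1, -0.0048 to 0.41 for AMPK gamma-2, -0.24 to 0.036 for the tubeworm-like 14-3-3 epsilon row and -0.12 to 0.036 for the 14-3-3 zeta row TRINITY_DN10704_c0_g1. Among pathway genes it ranged from -0.018 to 0.077 for myotubularin-related protein 14, -0.12 to 0.28 for TBC1 domain family member 1, -0.14 to 0.26 for TELO2-interacting protein 2, -0.13 to 0.11 for ITFG2, -0.037 to 0.51 for Ras-related GTP-binding protein C, -0.15 to 0.29 for programmed cell death protein 4, -0.092 to 0.28 for eIF4E type 2, -0.28 to 0.22 for the SNF-related kinase and -0.11 to 0.68 for c-Myc-binding protein. The cause of these turns was not tested. The unknown depth limits the rows under 1 TPM most, since such values may rest on few reads.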
